A study of Mus musculus with 11 samples.

Results

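Elf5, Kit, Tspan8, Cd14 and Prom1 are 5 genes used to recognise luminal progenitor (LP) cells of the mouse mammary gland, and they are described here out of the 27179 genes counted in the series. They were chosen by name and matched through their Entrez gene identifiers, a rule that uses no measured value. All 5 were found, and all 5 passed the filter on low counts that left 17370 genes for testing. Bulk RNA-seq was carried out on epithelial cells sorted from C57BL/6 mice aged 5 weeks that carry an E-cadherin-GFP reporter, which every group shared. Terminal end buds (TEBs, the swollen ends of elongating ducts in puberty) were separated by micro-dissection from the ducts behind them, and Lin–CD29+CD24+ cells were split into a GFP-high fraction (luminal) and a GFP-low fraction (basal). This gave 3 basal duct, 3 basal TEB, 2 luminal duct and 3 luminal TEB libraries, each from a pool of at least 2 mice, and 1 more luminal duct library had been left out by the authors because too few cells were obtained. Separate pools are the replicates, so each p-value measures the spread between pools. The question asked of each gene was whether its level differed between TEBs and ducts within luminal cells.

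The luminal layer holds LP cells and mature luminal (ML) cells. LP cells largely lack the receptors for estrogen and progesterone and give rise to milk-secreting alveolar cells, while ML cells sense these hormones. Elf5 encodes an ETS-family transcription factor that acts downstream of the prolactin receptor and directs the alveolar fate. Kit encodes the receptor for stem cell factor, Tspan8 a tetraspanin, Cd14 a co-receptor for bacterial lipopolysaccharide, and Prom1 the membrane protein prominin-1, and antibodies to these proteins are used in cell sorting. Prominin-1 is also found on hormone-sensing luminal cells, and Tspan8 on a subset of basal cells. In RNA from a whole sorted fraction, fewer LP cells and less RNA in each cell cannot be told apart.

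All 5 genes were lower in luminal TEBs than in luminal ducts, with no overlap between the libraries, as were 17.4% of all genes tested. Yet none passed the threshold of 0.05 on the FDR, which 1.41% of all genes did. The FDR is the p-value of edgeR's quasi-likelihood method after Benjamini-Hochberg adjustment over all genes tested. The fitted differences were 2.68-fold for Elf5, 2.61-fold for Tspan8, 2.24-fold for Cd14, 2.05-fold for Kit and 1.29-fold for Prom1. Between cell types the differences were larger, and in each structure 4 of the 5 genes passed the threshold and were lower in basal cells. Of all genes 9.71% did so in ducts and 11.8% in TEBs. The gene that missed the threshold was Tspan8 in ducts and Kit in TEBs. Elf5, Tspan8 and Cd14 had few counts in basal TEBs (54, 102 and 37 over the 3 libraries).

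Some libraries stood apart from the rest. Totals ran from 27989137 to 49221436 counts per library, and counts on mitochondrial genes took between 4.34% and 37.5% of a library, with 37.5% in basal TEB replicate 1 and 28.5% in luminal duct replicate 3, which had the lowest totals. The sort was checked on 8 basal and 8 luminal marker genes. In ducts and in TEBs all 8 luminal markers passed as lower and all 8 basal markers as higher in basal cells. Of all genes 9.71% were lower and 12.6% higher in ducts, and 11.8% were lower and 13.2% higher in TEBs. The luminal markers include Cdh1, the gene of E-cadherin, whose reporter set the gates, so Cdh1 is no independent check. Basal markers such as Krt14 and Acta2 summed to 99.0 and 270.5 counts-per-million (CPM) in luminal duct and to between 15.5 and 28.6 CPM in luminal TEB. Their sums were 16530 to 20420 CPM in basal duct and 5671 to 8752 CPM in basal TEB. The luminal markers summed to between 713 and 984 CPM in the basal libraries and between 13120 and 19720 CPM in the luminal ones. The highest level of any of the 5 genes in a basal library was 60.3 CPM in ducts and 83.2 CPM in TEBs, for Kit in each. The part of these admixtures in the levels of the 5 genes was not tested.

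The promoters of Elf5, Kit, Tspan8 and Prom1 are shown first, because the Elf5 protein, like other ETS factors, binds DNA at a GGAA core. The sequences are the 250 bases before an annotated start in RefSeq on GRCm38.p6, read 5′ to 3′ on the strand of the gene. Capitals mark GGAA or its reverse complement TTCC. Not every start is the outer end of its gene. The Tspan8 window, both Prom1 windows and the window of the downstream Elf5 start lie inside the gene spans given below. The table holds 7 windows for these 4 genes, and 6 are shown, since the other Kit window starts within 4 bases of the one printed.
Elf5, upstream start, chr2:103411848-103412097, plus strand: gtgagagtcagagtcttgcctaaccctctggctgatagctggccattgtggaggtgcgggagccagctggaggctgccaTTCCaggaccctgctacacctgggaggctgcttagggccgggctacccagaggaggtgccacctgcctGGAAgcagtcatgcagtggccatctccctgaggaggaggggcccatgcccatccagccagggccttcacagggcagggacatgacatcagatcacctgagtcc
Elf5, downstream start, chr2:103423818-103424067, plus strand: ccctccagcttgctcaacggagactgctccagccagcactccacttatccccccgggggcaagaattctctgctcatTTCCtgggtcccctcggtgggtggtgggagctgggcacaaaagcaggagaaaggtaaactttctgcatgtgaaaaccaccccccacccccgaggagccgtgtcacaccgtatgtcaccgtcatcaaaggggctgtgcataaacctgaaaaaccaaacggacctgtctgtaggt
Kit, chr5:75574737-75574986, plus strand: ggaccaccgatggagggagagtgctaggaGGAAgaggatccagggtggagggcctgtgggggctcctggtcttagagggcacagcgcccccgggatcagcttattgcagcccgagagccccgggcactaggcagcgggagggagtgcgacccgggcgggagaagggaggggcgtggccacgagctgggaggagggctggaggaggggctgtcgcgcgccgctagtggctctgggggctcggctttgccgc
Tspan8, chr10:115817034-115817283, plus strand: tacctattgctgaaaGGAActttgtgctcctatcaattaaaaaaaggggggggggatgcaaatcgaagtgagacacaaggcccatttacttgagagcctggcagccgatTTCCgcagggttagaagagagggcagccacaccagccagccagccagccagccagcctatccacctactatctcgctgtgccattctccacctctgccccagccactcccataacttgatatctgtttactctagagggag
Prom1, upstream start, chr5:44101737-44101986, minus strand: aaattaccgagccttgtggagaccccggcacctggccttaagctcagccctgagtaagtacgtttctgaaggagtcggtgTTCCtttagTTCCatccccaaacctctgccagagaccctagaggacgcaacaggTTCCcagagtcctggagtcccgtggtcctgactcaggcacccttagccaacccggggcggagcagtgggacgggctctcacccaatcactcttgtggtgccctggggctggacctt
Prom1, downstream start, chr5:44094769-44095018, minus strand: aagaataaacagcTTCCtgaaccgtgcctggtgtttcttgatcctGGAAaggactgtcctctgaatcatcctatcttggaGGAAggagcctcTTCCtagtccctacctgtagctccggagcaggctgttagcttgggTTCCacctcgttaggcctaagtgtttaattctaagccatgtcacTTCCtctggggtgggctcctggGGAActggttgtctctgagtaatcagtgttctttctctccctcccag
The core occurred 2 times upstream of the first Elf5 start, once before the second start, once before Kit, 2 times before Tspan8, 3 times before the upstream Prom1 start and 7 times before its downstream start. Over 32841 windows of this length in the same table, 93.5% held at least 1 core and the median was 3, so of the windows shown only the downstream Prom1 start held more cores than the median. The windows differed in base composition. Kit had 17 CpG dinucleotides and 70.8% G or C, Tspan8 had 4 and 52.4%, and the first Elf5 start had 2 and 62.8%, compared with medians of 6 and 52.4% over all windows. A match to these letters is a description and not a binding site.

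Elf5 (Entrez gene 13711, chromosome 2 of mm10, 103412098 to 103450989) was a luminal gene in both structures. It was at 123 and 84.0 CPM in the luminal duct libraries and at 40.4, 48.3 and 27.1 CPM in the luminal TEB libraries. Both duct libraries were above all TEB libraries. The mean was 103 ± 27.5 (SD, n = 2) CPM in ducts and 38.6 ± 10.7 (SD, n = 3) CPM in TEBs, a fitted log2 fold change (log2FC) of -1.42 with an SE of 1.04 and an FDR of 0.51 (edgeR, adjusted over all genes). Basal duct libraries held 2.43, 1.05 and 0.0257 CPM and basal TEB libraries 1.85, 0.463 and 0 CPM. These overlapped, and the highest basal library was far below the lowest luminal one. The basal counts were 122, 40 and 1 in ducts and 32, 22 and 0 in TEBs, so a difference of 2-fold between basal TEB and duct was not detectable (log2FC -0.81, 95% confidence interval -3.23 to 1.61). With 3 counts as the upper limit for a count of 0, which concerns counting error alone, the library at 0 could have held up to 0.0840 CPM.

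Kit (Entrez gene 16590, chromosome 5, 75574987 to 75656722) was detected in every basal library, at 11.1 CPM or more. Luminal duct libraries held 178 and 306 CPM, and luminal TEB libraries 107, 159.5 and 87.7 CPM. The ducts again lay above the TEBs without overlap, by less than 20 CPM at the nearest pair. The log2FC was -1.04 (SE 0.53, FDR 0.346 in edgeR). In basal cells the order was the other way round, with 11.1, 26.9 and 60.3 CPM in ducts and 48.8, 83.2 and 73.8 CPM in TEBs. Here the groups overlapped, and the basal log2FC of 1.07 (SE 0.49) had an unadjusted p of 0.0489 and an FDR of 0.343 (edgeR). All luminal libraries were above all basal ones, but the lowest luminal TEB library (87.7 CPM) was close to the highest basal TEB library (83.2 CPM). Kit is also a mast cell and melanocyte gene. Of the 6 mast cell markers (among them Cpa3 and Mcpt4) all were at 0 in every basal library, at least 5 were at 0 in each luminal duct library, and their sum was at most 1.5 CPM, in luminal TEB replicate 3. The 6 melanocyte markers summed to 5.69 and 11.4 CPM in luminal ducts and to between 2.61 and 3.89 CPM in luminal TEBs, in the same direction as Kit. Most of this was Mitf (4.69 and 5.10 CPM in ducts, 2.33, 1.14 and 1.18 CPM in TEBs) and Pmel (up to 6.29 CPM, in luminal duct replicate 3), while Dct, Tyr and Tyrp1 were at 0.0897 CPM or less in every library. The part of such cells in the Kit level was not tested.

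Tspan8 (Entrez gene 216350, chromosome 10, 115816817 to 115849893) was the lowest of the 5 genes in luminal cells per length of transcript, as set out further on. Its luminal duct libraries were at 32.5 and 46.2 CPM and its luminal TEB libraries at 14.9, 21.3 and 8.94 CPM. The groups did not overlap, with a log2FC of -1.39 (SE 0.81, FDR 0.409 in edgeR). Basal ducts held 13.5, 8.55 and 8.93 CPM, and the first of these was above the lowest luminal TEB library, so basal ducts and luminal TEBs overlapped. Basal TEBs held 0, 0.926 and 1.62 CPM, below every other library. The basal log2FC was -3.54 (SE 0.83, FDR 0.0704 in edgeR), the nearest of the 5 genes to the threshold. It passed without basal TEB replicate 1, the library with the highest mitochondrial share and 0 counts of Tspan8 (log2FC -3.01, FDR 0.0227 in edgeR). Lgr5, named here after its value was seen, marks a basal stem cell population together with Tspan8 and lies 229036 bases from it on the same chromosome with no counted gene between them. Lgr5 had a basal log2FC of -6.69 and passed the threshold (FDR 0.00585 in edgeR).

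Cd14 (Entrez gene 12475, chromosome 18) was at 63.5 and 117 CPM in luminal ducts and at 31.6, 53.3 and 36.0 CPM in luminal TEBs. Both ducts were above the TEBs, with a log2FC of -1.16 (SE 0.91, FDR 0.539 in edgeR). In basal ducts the libraries had 2.81, 6.97 and 0.847 CPM. In basal TEBs all 37 counts were in replicate 2 (0.779 CPM), and the limits of 3 counts for the others are 0.173 and 0.0840 CPM. The basal groups therefore did not overlap, by 0.847 against 0.779 CPM, and the log2FC of -3.49 (SE 1.01) had an FDR of 0.14 (edgeR). Without basal TEB replicate 2 no count was left in that group and Cd14 passed (FDR 0.0218 in edgeR), with a fitted log2FC of -10.15 that depends on the prior count and is no bound, and without basal duct replicate 2 the value was -2.54 (FDR 0.398 in edgeR). Cd14 is also a gene of monocytes and macrophages. The 10 blood cell markers summed to 12.8 CPM in luminal duct replicate 1, 206.5 CPM in luminal duct replicate 3 and between 6.08 and 22.0 CPM in luminal TEBs. In replicate 3 the sum was mostly Cd74 (136 CPM), Laptm5 (28.1 CPM) and Ptprc (26.5 CPM). The macrophage genes of the list differed there, with Csf1r at 0, Adgre1 at 0.0411 CPM and Lyz2 at 7.98 CPM. Lyz2 was at 0 CPM in replicate 1 and at 0.0448, 5.79 and 1.31 CPM in luminal TEBs. In replicate 1 Ptprc and Cd74 were each at 0.228 CPM, and most of the sum was the macrophage gene Cd68, at 11.1 CPM there against 5.63 CPM in replicate 3 and 5.13, 6.61 and 4.33 CPM in luminal TEBs. The part of blood cells in the Cd14 level was not tested. Among the luminal libraries, markers of other tissue cells were highest in luminal duct replicate 3, with 259 CPM for 7 fibroblast genes, 82.2 CPM for 6 adipocyte genes and 32.5 CPM for 6 endothelial genes, against 6.03, 0 and 1.02 CPM in replicate 1, and basal duct replicate 2 held more of each (856, 186.8 and 203 CPM). Their part in the 5 genes' levels was not tested. At the FDR threshold 0 genes of the blood, fibroblast, adipocyte and endothelial lists passed between luminal TEBs and ducts, compared with 1.41% of all genes (edgeR). There were 2, 1, 1 and 0 at an unadjusted p below 0.05 in edgeR, and DESeq2 called 0, 1, 0 and 0. These sums were high in 1 of the 2 luminal duct libraries, so a comparison between groups cannot show whether such cells were present.

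Prom1 (Entrez gene 19126, chromosome 5, 43993621 to 44102047) showed the smallest difference between luminal TEBs and ducts. It was at 193 and 160.4 CPM in ducts and at 136, 119 and 158 CPM in TEBs. The lowest duct library and the highest TEB library were nearly equal, and the log2FC was -0.36 (SE 0.87, FDR 0.879 in edgeR). In basal ducts the libraries held 0.18, 0 and 2.87 CPM, and in basal TEBs 2.37, 2.99 and 4.79 CPM. These ranges overlapped (log2FC 1.77, SE 0.89, FDR 0.392 in edgeR). Without basal duct replicate 3, which held 112 of the 121 basal duct counts, the value rose to 5.06 and passed the threshold (FDR 0.00421 in edgeR).

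**Figure D1:**
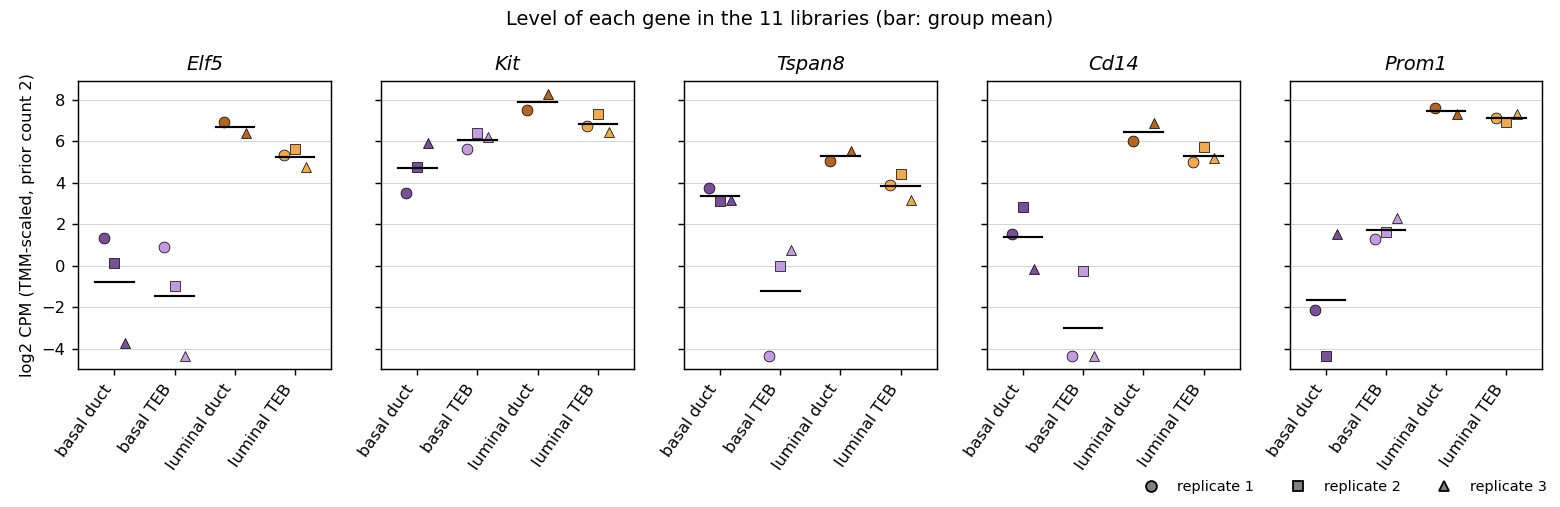
Level of each of the 5 genes in the 11 libraries as log2 CPM (y axis) in 4 groups (x axis); each point is 1 library, the shape gives its replicate number and the bar is the group mean. Both luminal duct points lie above the 3 luminal TEB points for every gene, most narrowly for Prom1, and libraries with 0 counts sit at the floor of -4.34 set by the prior count.

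In luminal cells 5 of 5 genes were lower in TEBs without overlap of the libraries, compared with 17.4% of all genes tested, and 0 of 5 passed the FDR threshold, compared with 1.41% of all genes. In edgeR 0 of 5 had an unadjusted p below 0.05, the lowest being 0.0738 for Kit, and DESeq2 and edgeR's likelihood ratio method also called 0. The median log2FC of the 5 genes was -1.16, and that of all genes tested was 0.04. The 95% confidence intervals all included 0 and were wide, from -3.70 to 0.86 for Elf5 and from -2.26 to 1.54 for Prom1, and so held both a large fall and no change. A log2FC of -1 or less was found for 4 of the 5 genes, against 15.4% of all genes. Each gene had 464 or more counts in every luminal library. The model shares 1 estimate of spread over the luminal and basal libraries. In a fit of luminal libraries alone the SE of Elf5 was 0.28 in place of 1.04 and its FDR was 0.0523 (edgeR), with 0.0899 for Tspan8, 0.0922 for Cd14, 0.111 for Kit and 0.224 for Prom1. Limma voom called Elf5 (FDR 0.0385) and none of the other 4. Leaving out luminal duct replicate 3 changed Kit from -1.04 to -0.59 and Cd14 from -1.16 to -0.66, and no library left out brought any of the 5 genes past the threshold.

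**Figure D2:**
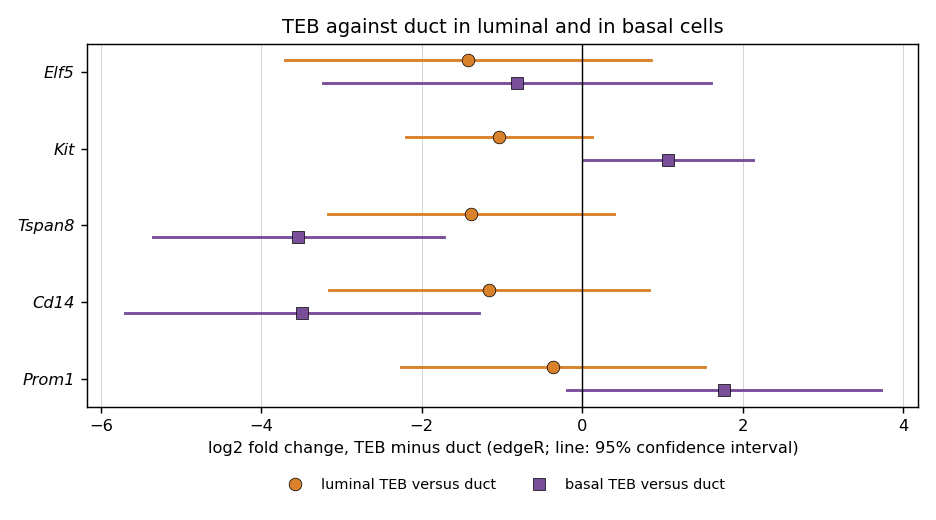
Log2 fold change of TEB against duct (x axis) for each gene (y axis), in luminal cells (circles) and basal cells (squares), with 95% confidence intervals from edgeR. All 5 luminal values are below 0 with intervals that include 0; in basal cells Tspan8 and Cd14 lie near -3.5, and Kit and Prom1 above 0.

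In basal cells 0 of 5 genes passed, compared with 1.32% of all genes, and at an unadjusted p below 0.05 there were 3 in edgeR (Tspan8, Cd14 and Kit). Kit, with an unadjusted p of 0.0489 (edgeR), ranked 2478 among the 17370 genes tested, so such p-values were common. The likelihood ratio method called 2 (Tspan8 and Cd14), DESeq2 1 (Tspan8) and limma voom 0. Tspan8 and Cd14 were lower in TEBs without overlap, as were 11.9% of all genes tested. The TEB against duct difference in luminal cells minus that in basal cells was -2.10 for Kit (SE 0.72, unadjusted p 0.0128, FDR 0.215 in edgeR), -2.13 for Prom1, -0.61 for Elf5, 2.15 for Tspan8 and 2.33 for Cd14. In edgeR 0 of 5 passed, compared with 0.443% of all genes, Kit was the 1 gene with an unadjusted p below 0.05, and DESeq2 and limma voom also called 0. With libraries left out Prom1 passed in 1 fit, without basal duct replicate 3 (-5.42, FDR 0.0205 in edgeR). Cd14 moved from 2.33 to 8.97 (FDR 0.0713 in edgeR) without basal TEB replicate 2, a fitted value that depends on the prior count because no count was left in basal TEBs.

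Basal and luminal cells were compared next. In ducts 4 of 5 genes passed the threshold and were lower in basal cells, as were 9.71% of all genes, and all 5 were lower without overlap, as were 21.2%. The log2FC of basal against luminal cells was -7.46 for Prom1 (SE 1.08, FDR 0.000369), -6.44 for Elf5 (1.24, FDR 0.00265), -4.67 for Cd14 (1.00, FDR 0.00526) and -2.89 for Kit (0.54, FDR 0.00226 in edgeR). Tspan8 had -1.93 (SE 0.82, FDR 0.116 in edgeR). It passed in 6 of 22 other ways of processing, among them a fit of the 2 groups alone (FDR 0.0131) and a fit without basal TEB replicate 1 (FDR 0.00655 in edgeR). In TEBs 4 of 5 genes passed and were lower in basal cells, as were 11.8% of all genes, and all 5 were lower without overlap, as were 27.2%. Here Cd14 had -7.00 (SE 1.13, FDR 0.000626), Elf5 -5.83 (1.22, FDR 0.00384), Prom1 -5.33 (0.95, FDR 0.00134) and Tspan8 -4.08 (0.85, FDR 0.00373 in edgeR). The fitted value for Cd14 moved to -13.64 without basal TEB replicate 2, which held all of its counts in that group, and is then no bound. Kit had -0.78 (SE 0.48, FDR 0.271 in edgeR), and none of 22 alternatives called it. The 8 calls held in all 22 alternatives.

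Levels of different genes can be compared only per length of transcript, as RPKM (CPM per kilobase) with the gene lengths in the deposited table. In luminal ducts Cd14 was at 60.2 ± 25.2 RPKM, Kit at 46.8 ± 17.5, Elf5 at 46.0 ± 12.2 and Prom1 at 43.1 ± 5.70 RPKM (SD, n = 2), and their libraries overlapped. Tspan8, at 25.8 ± 6.38 RPKM (SD, n = 2), was below all of them. In luminal TEBs Prom1 came first with 33.5 ± 4.72 RPKM, followed by Cd14 with 26.9 ± 7.67, Kit with 22.8 ± 7.17, Elf5 with 17.2 ± 4.77 and Tspan8 with 9.88 ± 4.06 RPKM (SD, n = 3). Neighbours in this order overlapped, whereas the Prom1 libraries (29.0 RPKM or more) were all above the Elf5 libraries (21.5 RPKM or less). In basal TEBs Kit, at 13.2 ± 3.43 RPKM (SD, n = 3), was far above the other 4 genes, none of which exceeded 1.17 RPKM in a library.

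Another 14 LP genes, from general knowledge of the cell type, were examined beside these. The list was not specific to luminal cells in these libraries. In ducts 5 of the 14 passed as higher in basal than in luminal cells and 5 as lower (12.6% and 9.71% of all genes). In TEBs 4 passed as higher in basal cells and 6 as lower (13.2% and 11.8% of all genes). In luminal TEBs 2 of the 14 fell in edgeR, 0 rose and 12 did not pass (0.771% of all genes fell and 0.639% rose), with a median log2FC of -1.08 and 12 of 14 values below 0. An unadjusted p below 0.05 was found for 7 of them, and the likelihood ratio method and DESeq2 each called 4 and limma voom 8. In the same comparison an unadjusted p of 0.0738 (Kit, edgeR) ranked 3704 among the 17370 genes tested, so low unadjusted p-values were common. Mfge8, a milk fat globule protein, fell from 430.2 ± 34.5 (SD, n = 2) CPM in ducts to 146 ± 38.4 (SD, n = 3) CPM in TEBs (log2FC -1.56, SE 0.23, FDR 0.011 in edgeR). Trf, which encodes the iron carrier transferrin, fell from 120.2 ± 41.2 to 37.0 ± 14.0 CPM (log2FC -1.70, SE 0.35, FDR 0.0378 in edgeR). Trf also fell in basal TEBs (-2.60, FDR 0.00325, edgeR), where 1.16% of all genes did. Both genes are abundant in basal cells, with 1544 CPM for Mfge8 and 212 CPM for Trf in basal ducts, and the part of basal cell RNA in their luminal levels was not tested. The most abundant others were Csn3, a casein (-1.35), Lcn2, an iron-binding secreted protein (-1.02), the surface protein gene Plet1 (-0.94) and Wfdc18 (-1.14). Each was lower in all 3 TEB libraries than in both duct libraries, as were 17.4% of all genes, with an FDR of 0.101 to 0.406 (edgeR). Itgb3 (CD61), an integrin subunit also used to sort LP cells and named here after its value was seen, had the opposite direction, with 9.67 and 33.2 CPM in ducts and 66.1, 96.5 and 93.2 CPM in TEBs (log2FC 2.00, SE 0.46, FDR 0.0582 in edgeR). It passed without luminal duct replicate 3 (3.14, FDR 0.015) or basal duct replicate 2 (2.00, FDR 0.0475 in edgeR), and in all in 7 of 22 alternatives, among them no filter, the likelihood ratio method, DESeq2 and limma voom. The call of Mfge8 was lost with library totals alone as the scaling, and without luminal TEB replicate 1 (FDR 0.0638) or 3 (FDR 0.066). Trf was lost with library totals alone, in a fit of the luminal libraries alone, and without basal duct replicate 1 (FDR 0.0646) or 3 (0.0582), basal TEB replicate 3 (0.0609), luminal duct replicate 1 (0.0752), or luminal TEB replicate 1 (0.0749), 2 (0.0919) or 3 (0.119, edgeR in each).

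ML genes were the other luminal population examined. Of 12 in the list 11 were tested and 0 passed in luminal cells in edgeR (0 at an unadjusted p below 0.05, 0 in DESeq2 and 1 in limma voom), with a median log2FC of -0.40. The prolactin receptor gene Prlr (-0.47) and the growth factor gene Areg (-0.49) overlapped between groups, while Cited1 (0.82), Foxa1 (0.52), a transcription factor gene of hormone-sensing cells, and the estrogen receptor gene Esr1 (0.92) were higher in all 3 TEB libraries than in both duct libraries, as were 26.2% of all genes. Wnt4 (-0.84) and Ly6a (-0.73) were lower without overlap, as were 17.4% of all genes. Esr1, Wnt4 and Ly6a are named because their groups did not overlap. The median of the list was -0.75 without luminal duct replicate 3 and 0.36 without luminal duct replicate 1, so its direction rested on which duct library was used. For the 5 LP genes the median was -0.66 and -1.37 in the same fits.

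**Figure D3:**
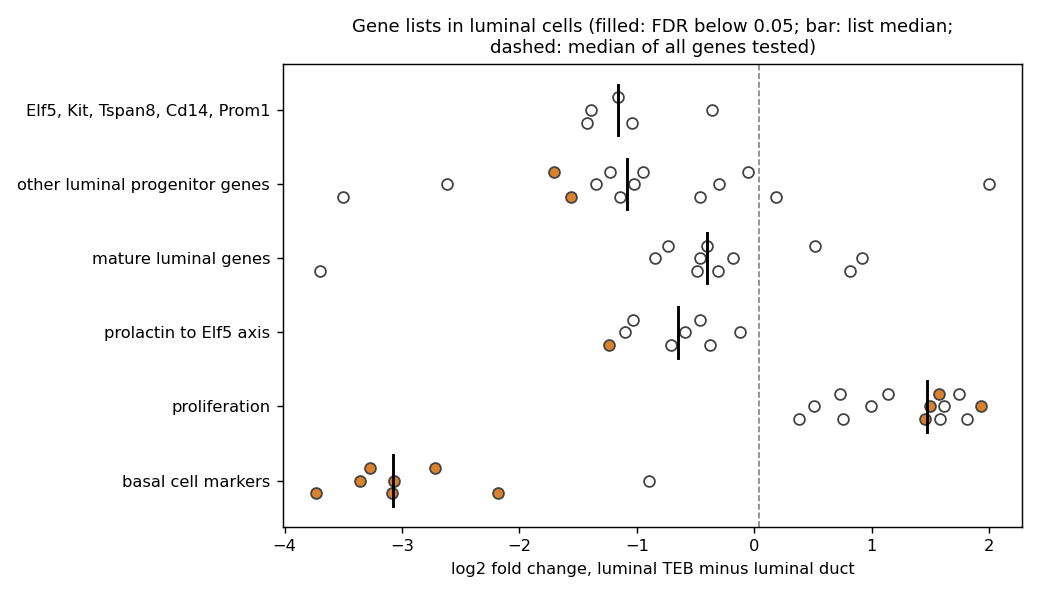
Log2 fold change of luminal TEB against luminal duct (x axis) for the tested genes of 6 lists (y axis); each circle is a gene, filled where it passed the FDR threshold, the bar is the list median and the dashed line the median of all genes tested. The 5 LP genes and the other LP genes have medians of -1.16 and -1.08, the proliferation genes 1.48 and the basal cell markers -3.08.

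Of the proliferation genes, 4 of 14 rose in luminal TEBs in edgeR (Plk1, Mcm6, Mcm3 and Mcm5), compared with 0.639% of all genes, 0 fell, and all 14 values were above 0, with a median of 1.48. Their sum was 787 and 844 CPM in ducts and between 1824 and 2117 CPM in TEBs. The number that passed was 0 without luminal duct replicate 3 or any 1 of the 3 luminal TEB libraries, 1 without basal TEB replicate 3, 2 without basal duct replicate 1 or 3, basal TEB replicate 2 or luminal duct replicate 1, and 8 without basal duct replicate 2, while limma voom called 5, DESeq2 8 and the likelihood ratio method 9. Of the basal cell markers 7 of 8 fell in luminal TEBs, compared with 0.771% of all genes, among them Mylk (-3.73) and Oxtr (-3.09), with a median of -3.08. Between 2 and 7 did so with a library left out, the fewest without luminal TEB replicate 3, and limma voom called 1. The part of proliferation and of basal cell RNA in the lower LP gene levels was not tested.

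Elf5 belongs to the epithelial ETS factors with Elf3, Ehf and Spdef. Between luminal TEBs and ducts 0 of the 4 passed in edgeR, 0 had an unadjusted p below 0.05, DESeq2 called 0 and limma voom 1, which was Elf5. Elf5 had the lowest log2FC of the 4. Elf3 was at 180.4 ± 41.0 (SD, n = 2) CPM in ducts and 130.1 ± 15.3 (SD, n = 3) CPM in TEBs (log2FC -0.47). Ehf (-0.30) and Spdef (-0.23) overlapped between the groups. All 4 passed as lower in basal than in luminal cells in ducts and in TEBs, as did 9.71% and 11.8% of all genes. A list of 8 genes was drawn up around the pathway from the prolactin receptor to Elf5, and not all of them are signalling genes. All 8 values in luminal cells were below 0, with a median of -0.65. In luminal TEBs 1 of the 8 fell and 0 rose (0.771% of all genes fell and 0.639% rose). The gene was Gata3, a transcription factor needed for luminal differentiation, at 373 ± 56.6 (SD, n = 2) CPM in ducts and 159 ± 29.4 (SD, n = 3) CPM in TEBs (log2FC -1.23, SE 0.22, FDR 0.0241 in edgeR). The signalling genes Prlr (-0.47), Jak2 (-0.71), Stat5a (-1.03) and Stat5b (-0.38) did not pass. Neither did Cish (-0.12), Socs2 (-0.59) or Id2 (-1.10). Gata3 lost its call with library totals alone, with a replicate block, and without luminal duct replicate 3 (FDR 0.0955) or luminal TEB replicate 1 (0.0795), 2 (0.0882) or 3 (0.0714 in edgeR), and with both libraries of highest mitochondrial share left out.

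The gene for the ligand of Kit was higher in basal than in luminal cells. Kitl, which encodes stem cell factor, was at 444 ± 61.0 (SD, n = 3) CPM in basal duct, 189 ± 35.5 (SD, n = 3) CPM in basal TEB and 76.1 and 76.0 CPM on average in luminal duct and luminal TEB. It was higher in basal than in luminal cells in ducts (log2FC 2.54, FDR 1.55e-05) and in TEBs (1.31, FDR 0.000343), and it fell in basal TEBs (-1.23, SE 0.19, FDR 0.00969 in edgeR). This last call was lost with library totals alone, and without basal TEB replicate 3 (log2FC -1.12, FDR 0.0724 in edgeR). In luminal cells the Kitl difference between TEBs and ducts was 0.00 (SE 0.21). The related receptor genes Pdgfra, Pdgfrb and Csf1r averaged 4.05 CPM or less in luminal duct and in luminal TEB. With Kit and Kitl 5 genes of this list were tested and 0 passed in luminal cells (edgeR, with 0 at an unadjusted p below 0.05 and 0 in DESeq2 and limma voom).

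Genes whose proteins act with Cd14 were examined next. In the lipopolysaccharide receptor complex 0 of 7 genes passed in luminal cells (edgeR, with 0 at an unadjusted p below 0.05 and 0 in DESeq2 and limma voom), with a median of -0.15. The receptor gene Tlr4 was at 10.1 and 19.5 CPM in luminal ducts and at 14.0, 16.5 and 17.9 CPM in luminal TEBs, and the adaptor genes Myd88 (-0.15) and Ticam1 (0.12) also overlapped. In basal cells Myd88 fell from 63.5 ± 17.0 to 23.5 ± 1.34 (SD, n = 3 each) CPM, with a log2FC of -1.43 (SE 0.20, FDR 0.00545 in edgeR), and passed in all 22 alternatives. Among the tetraspanins 0 of 24 tested passed in luminal cells (edgeR, with 0 at an unadjusted p below 0.05 and 0 in DESeq2 and limma voom), with a median of -0.15. The abundant Cd9 (-0.12), Tspan13 (-0.18) and Cd82 (0.25) had small values. Tspan1 (0.78) was higher in all 3 TEB libraries than in both duct libraries, as were 26.2% of all genes. None of these tetraspanins passed. Prom2, the relative of Prom1, was at 339 and 115 CPM in luminal ducts and at 143, 119 and 123 CPM in luminal TEBs, so its groups overlapped (log2FC -0.82, FDR 0.244 in edgeR). It passed between basal and luminal cells in ducts (-1.45, FDR 0.00801 in edgeR) and not in TEBs (-0.22).

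For each of the 5 genes the 3 genes with the most similar profile over the 11 libraries were found among 9345, by the root-mean-square difference between log2 CPM values centred on their mean. Kit was closest to Ntn1, the gene of the guidance cue netrin-1 (0.52 log2 units), then Nucb2 (0.52) and Arhgap40 (0.53). Tspan8 was closest to the homeobox gene Meis3 (0.58), Rgl3 (0.73) and Nuak2 (0.77), and Cd14 to the transporter gene Slc5a8 (0.76), Unc13b (0.96) and Itih5 (0.96). Prom1 was nearest to the fatty acid receptor gene Ffar4 (1.01), Mboat1 (1.09) and Dnajc12 (1.12). The nearest genes to Elf5 were farther from it, namely the iodide transporter gene Slc5a5 (1.51), the claudin gene Cldn3 (1.55) and the keratin gene Krt19 (1.56). Between the 5 genes themselves the distances ran from 2.12 for Elf5 and Cd14 to 3.89 for Tspan8 and Prom1. The nearest genes were picked as the smallest distances among 9345, so they give no scale for the distances between the 5 genes. Whether the 5 genes follow 1 common profile was not tested. Low counts in basal libraries enter these distances.

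**Figure D4:**
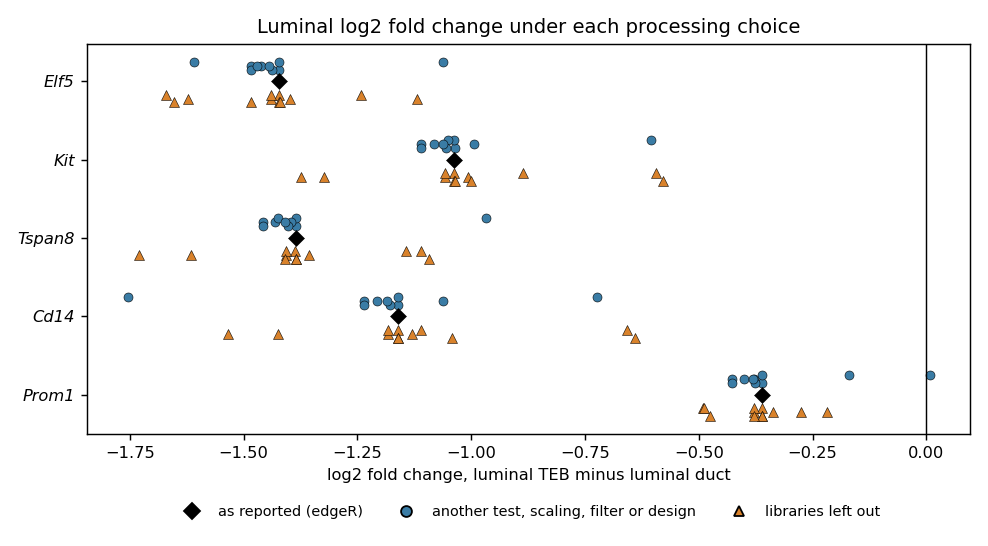
Log2 fold change of luminal TEB against luminal duct (x axis) for each gene (y axis) as reported (diamonds), under 10 other tests, scalings, filters or designs (circles), and with 1 or 2 libraries left out (triangles). All values are below 0 except Prom1 scaled by library totals alone; Kit and Cd14 move nearest to 0 when luminal duct replicate 3 is left out, and Elf5 and Tspan8 stay at -0.97 or below.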

How the data were processed

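Read pairs were mapped by the authors to mm10 (Rsubread) and assigned to Entrez genes (featureCounts, RefSeq annotation supplied with the package), and the deposited values are whole counts, not normalized. Each library's own table equalled its column in the series table for all 11 libraries, and 0 columns were unused. Of 27179 genes, 25275 (93.0%) had a symbol in the RefSeq table of GRCm38.p6. From the counts, low genes were removed by filterByExpr (at least 10 counts, total at least 15), scaled by TMM, and the 4 groups fitted in 1 quasi-likelihood model (R 4.3.3, edgeR 4.0.16; limma 3.58.1 and DESeq2 1.42.0 as alternatives), with Benjamini-Hochberg adjustment and an FDR of 0.05. SE is the size of the log2FC over the root of F. The common biological coefficient of variation was 0.704. CPM is TMM-scaled, log2 CPM has a prior count of 2, and RPKM uses the deposited gene lengths. Scripts were tested on simulated data. The authors state at least 2 mice per replicate.

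The 5 genes and the gene lists were chosen with earlier results of these data known. From each list the text names genes past the threshold in luminal cells (up to 4) and up to 4 others by luminal CPM, with exceptions stated. Same-numbered libraries correlated between -0.0677 and 0.163 (median 0.0689, 4 of 15 pairs over 0.1). Differently numbered libraries correlated between -0.163 and 0.137 (median -0.0264, 2 of 30 pairs over 0.1), so a weak pairing is possible. The labels do not say that a number marks the same pool in every group. Replicate numbers were therefore not treated as pairs in the main fit, and a replicate block was an alternative. None of the 5 genes overlaps another annotated gene. Alternatives were other scalings, filters, tests and designs, and each library left out. Leaving out the 2 libraries with the highest mitochondrial share together was chosen after the data were seen.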

Additional observations from a re-analysis of the deposited data

How the results depend on the processing

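Over 22 alternatives the luminal log2 fold changes kept their sign, except that of Prom1 scaled by library totals alone (0.0087). That scaling moved the median of all genes from 0.04 to 0.42, and relative to it Prom1 was at -0.41. Limma voom called Elf5 (-1.47), the only call among the 5 genes in luminal cells. With each library left out the ranges were -1.67 to -1.12 for Elf5, -1.37 to -0.59 for Kit, -1.73 to -1.11 for Tspan8, -1.53 to -0.66 for Cd14 and -0.49 to -0.22 for Prom1. In the other comparisons 416 of 435 values kept direction and side of the threshold, 15 newly passed and 4 changed sign, all for Elf5. These were its basal difference without basal duct replicate 1 (0.28, in a range of -2.23 to 0.28 with each library left out), and its luminal minus basal difference with library totals alone (0.049), without basal TEB replicate 1 (0.84), and without that library and luminal duct replicate 3 (0.57). Of 80 levels, 77 moved by less than 1 SD.

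The number of genes called rested on the processing. In luminal cells it was 245, and it became 10 with library totals alone, 1006 with the likelihood ratio test, 1277 with DESeq2, 603 with the compared groups only, 372 without basal TEB replicate 1 and luminal duct replicate 3, and 37 to 1305 with 1 library left out. In basal cells it was 230, with 57 (library totals), 707 (likelihood ratio), 874 (DESeq2), 601 (limma voom) and 59 to 399 (1 library left out). For the difference between cell types it was 77, with 15 (library totals), 141 (no filter), 629 (likelihood ratio), 712 (DESeq2), 198 (both libraries left out) and 7 to 753 (1 library left out). The cause was not tested. The replicate block gave 125 genes in luminal cells, 111 of them among the 245, and 46 for the difference between cell types, and called none of the 5 genes between TEBs and ducts, while Gata3 lost its luminal call under it. Depth limits Elf5, Tspan8, Cd14 and Prom1 in basal cells, where a library held as few as 0 counts.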
